A study of Homo sapiens with 40 samples.

Results

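The measurements below follow 10 genes through 40 RNA sequencing libraries of RKO cells: SOX9, SOX4, AXIN2, TCF7L2, TCF7, LEF1, RNF43, ZNRF3, LGR4 and NKD1. They were chosen by name, as players of Wnt signalling and its feedback, but with earlier results of these data known. Each symbol matched 1 row of the count table. The table lists 19962 genes, and 11428 of them, among which are 9 of these 10 genes, had enough counts to be tested. RNF43 did not.

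RKO is an established human colorectal carcinoma line, and the cells carried Cas9 under a doxycycline-inducible promoter together with GFP. Each of 3 lines also expressed a pair of guide RNAs and BFP from a lentiviral vector (U6 promoters for the guides, PGK for BFP), and was sorted for BFP rather than grown from 1 clone. The guides were directed against AAVS1, a safe-harbour locus used as a control (sgAAVS1), against IGF2BP2 (sgIGF2BP2) or against IGF2BP3 (sgIGF2BP3), and both genes encode RNA-binding proteins. Cells of each line received DMSO, or doxycycline (Dox) at 250 ng/mL for 72 hours to induce Cas9. Cells of the sgIGF2BP2 and sgIGF2BP3 lines were also transfected at 75 nM for 48 hours with a non-targeting siRNA (siControl) or with an siRNA pool against the gene that their own guides target (siIGF2BP2 or siIGF2BP3). Cells of all 10 groups were given 4-thiouridine at 250 µM for 2 hours, and their RNA was alkylated. Each group has 4 libraries. The labels speak of a quadruplicate experiment in culture wells and do not say that the wells were separate experiments, so the p-values measure the spread between these wells.

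In the canonical Wnt pathway, a ligand bound to Frizzled and LRP receptors stops the destruction complex from degrading β-catenin. β-catenin then enters the nucleus and activates genes together with DNA-binding factors of the TCF/LEF family, which are TCF7, LEF1, TCF7L2 and TCF7L1. Several targets restrain the pathway in turn: AXIN2 is a scaffold of the destruction complex, RNF43 and ZNRF3 are ubiquitin ligases that remove Frizzled from the cell surface, and NKD1 binds Dishevelled. LGR4 is a receptor for R-spondins, which neutralise RNF43 and ZNRF3. SOX9 and SOX4 are transcription factors, and SOX9 marks the stem and progenitor zone of the intestinal crypt, where Wnt signalling is high.

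The 6 guide sequences are shown because they are what sets the 3 lines apart. They are written 5′ to 3′ in lower case, and no letter is marked.
AAVS1 guide, first of the pair: cgctgtgccccgatgcacac
AAVS1 guide, other of the pair: ggcgcgtcgctcgctcgctc
IGF2BP2 guide, first of the pair: atatgtgacgttgacaacgg
IGF2BP2 guide, other of the pair: gtgcgctgaggttcaaccct
IGF2BP3 guide, first of the pair: tggcaccgactgatagagct
IGF2BP3 guide, other of the pair: gaagatactttctaggtccg
Against 107 annotated transcripts of the 10 genes, both strands, no site followed by NGG came closer to a guide than 6 mismatches. For SOX9 transcripts the closest sites had 7 to 9 mismatches. Introns and flanking DNA were not searched.

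Levels are given as CPM, the counts of a gene relative to the scaled total of its library. Total counts per library ranged from 10018181 to 24822807, so 1 count was worth 0.041 to 0.10 CPM. The targeted genes checked the labels: IGF2BP2 fell from 85.3 to 33.9 CPM with Dox in sgIGF2BP2 cells and from 108 to 30.3 CPM with siIGF2BP2, and IGF2BP3 fell from 180 to 56.2 CPM with Dox in sgIGF2BP3 cells and from 170 to 24.8 CPM with siIGF2BP3. Of the epithelial and colorectal markers, KRT8 (41.6 to 76.5 CPM over libraries), KRT18, EPCAM and CDX2 were present, while KRT19, KRT20, CDH1 and VIL1 stayed at or below 0.31 CPM. Of the mesenchymal markers, ZEB1 and VIM were present too, while CDH2 and FN1 stayed at or below 0.073 CPM. Markers of immune cells, endothelium and fibroblasts reached at most 1.1 CPM, for COL1A1. In bulk RNA, fewer cells with a transcript and less of it per cell cannot be told apart.

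LEF1, SOX4, TCF7 and TCF7L2 were the most abundant of the 10 genes, and the feedback scaffold AXIN2 and SOX9 were the lowest of those tested. Per kilobase of exon, mean levels over the 40 libraries were 7.20 CPM for LEF1, 5.17 for SOX4, 4.53 for TCF7, 3.76 for TCF7L2, 2.49 for ZNRF3, 1.17 for NKD1 and 0.817 for LGR4. SOX9 was at 0.372 CPM per kilobase and AXIN2 at 0.264. Without the length correction, SOX9 averaged 1.46 CPM (4 to 40 counts in a library) and AXIN2 1.38 CPM (9 to 31 counts), so that 6.05% and 6.18% of the tested genes had a lower mean log2 level. SOX9 was the gene whose groups differed most: its highest group mean was 4.01 times its lowest. The same ratio was 1.57 for LGR4, 1.41 for AXIN2, 1.38 for LEF1, 1.25 for SOX4, 1.24 for NKD1, 1.13 for TCF7L2, 1.12 for ZNRF3 and 1.11 for TCF7.

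**Figure D1:**
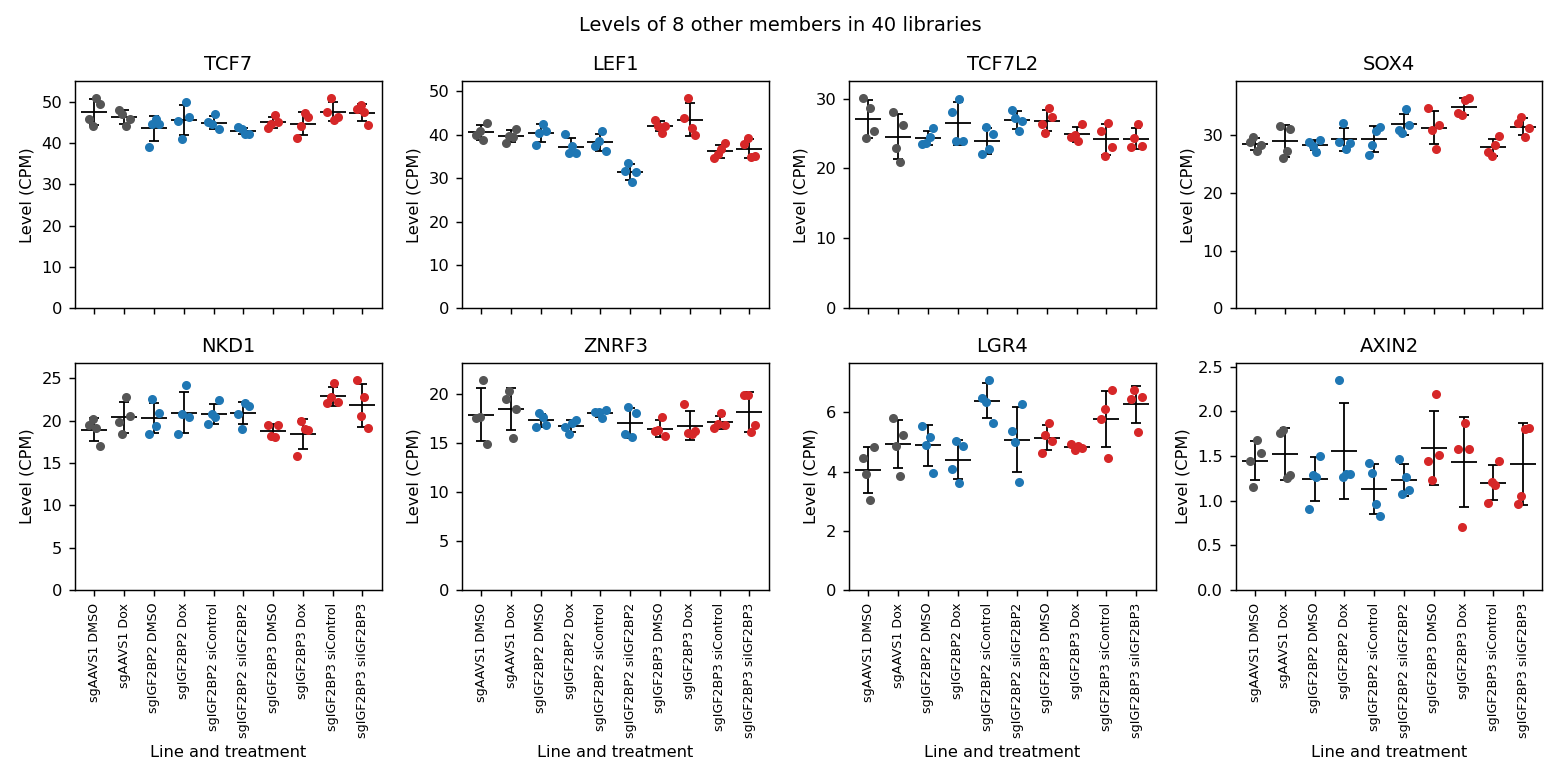
Levels of 8 of the genes in CPM (linear axes from 0) for each line and treatment; points are libraries, horizontal ticks are group means and bars are ± SD (n = 4). LEF1 is lowest with siIGF2BP2, at 29.2 to 33.6 CPM, and TCF7 lies between 39.1 and 50.9 CPM in every library.

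Fold changes below are log2 values from edgeR's quasi-likelihood test on all 40 libraries with their standard error (SE), and a gene is called when its p-value, adjusted by Benjamini-Hochberg over all 11428 tested genes, is under 0.05. Dox in sgAAVS1 cells called 1 of the 9 genes, against 15.9% of all tested genes. Dox in sgIGF2BP2 cells called none of the 9 (20.4% of all), with 1 at an unadjusted p under 0.05, and Dox in sgIGF2BP3 cells called none (2.64% of all), with 1 at an unadjusted p under 0.05. DESeq2 also called none with Dox in sgIGF2BP2 cells, and none of the 4 genes for which it gave an adjusted p in sgIGF2BP3 cells (none was given for SOX9, AXIN2, ZNRF3, LGR4 and NKD1). siIGF2BP2 called 2 of the 9 (36.8% of all), and siIGF2BP3 called 1 (2.34% of all). With only 9 genes, counts of 0 to 2 say little about them as a set. The median log2 fold changes of the 9 genes were 0.0292, 0.0489, −0.0248, −0.0682 and 0.0963 in these 5 comparisons, beside 0.00438, 0.00773, 0.00266, 0.0108 and 0.00151 over all tested genes.

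**Figure D2:**
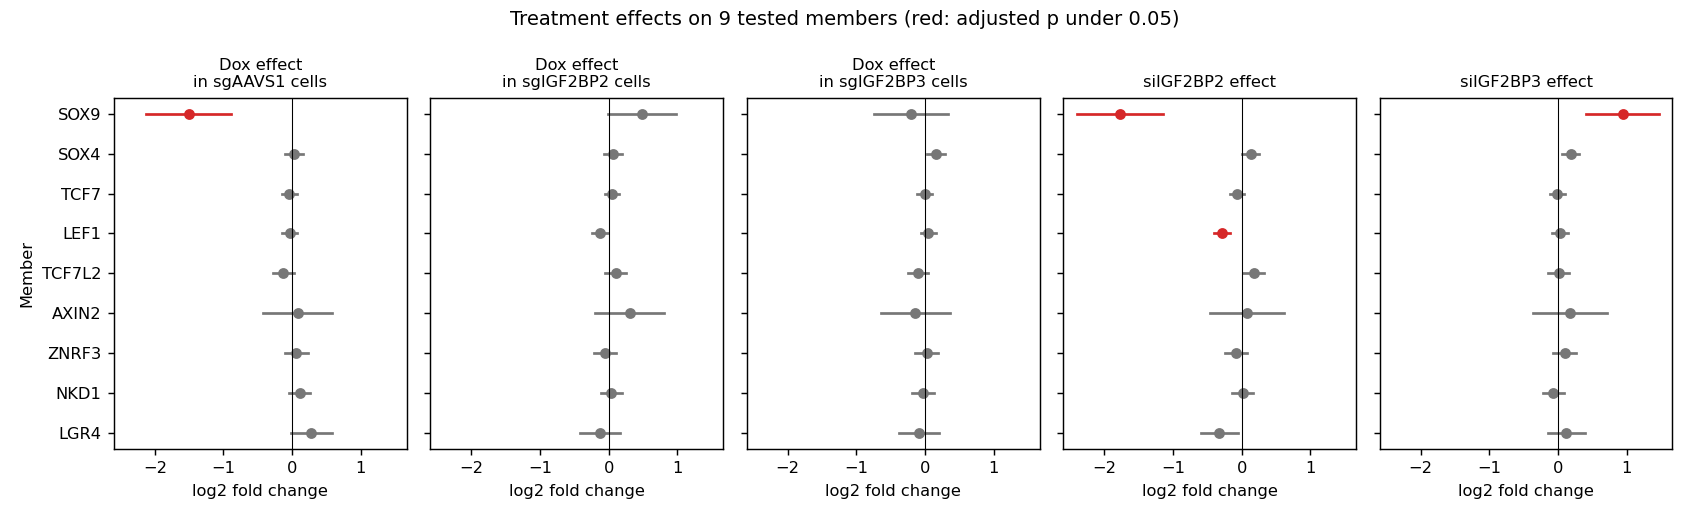
Log2 fold change of the 9 tested genes in 5 comparisons; points are estimates, bars are 95% intervals (estimate ± 1.96 SE) and red marks an adjusted p under 0.05. SOX9 lies at −1.51 with Dox in sgAAVS1 cells, −1.78 with siIGF2BP2 and 0.94 with siIGF2BP3, and the only other red point is LEF1 with siIGF2BP2 (−0.28).

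SOX9 (ENSG00000125398, GRCh38 17:72121020-72126420, plus strand) fell in 2 groups of libraries and rose in 1. In sgAAVS1 cells it stood at 1.82, 1.35, 1.83 and 2.36 CPM with DMSO (24, 20, 24 and 40 counts) and at 0.810, 0.597, 0.715 and 0.455 CPM with Dox (12, 7, 8 and 6 counts). Every Dox library lay below every DMSO library. The log2 fold change was −1.51 (SE 0.31, adjusted p = 0.00031 by edgeR's quasi-likelihood test), a 2.84-fold lower level, and only 2 tested genes had a lower value in this comparison. Ranks here and below are by the estimated fold change alone and take no account of its SE, which is larger for genes with few counts.

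In sgIGF2BP2 cells SOX9 stood at 1.89, 1.18, 1.59 and 2.86 CPM with siControl (37, 18, 23 and 38 counts). With siIGF2BP2 it stood at 0.606, 0.385, 0.297 and 0.811 CPM (7, 5, 4 and 13 counts), and the groups again did not overlap. The log2 fold change was −1.78 (SE 0.32, adjusted p = 6.6e-06, edgeR), a 3.42-fold lower level that was again the third lowest of all tested genes. With Dox in the same line SOX9 was not called: the libraries held 1.99, 1.46, 1.30 and 1.22 CPM with DMSO and 2.43, 1.27, 2.21 and 2.52 CPM with Dox. These groups overlap through Dox replicate 2 (1.27 CPM), and the log2 fold change of 0.49 (SE 0.25, 95% interval −0.0042 to 0.98) was not called (adjusted p = 0.17, edgeR). Without that library it was 0.72 and was called (adjusted p = 0.041, edgeR).

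In sgIGF2BP3 cells SOX9 stood at 0.880, 0.910, 1.10 and 1.53 CPM with siControl (9, 15, 13 and 19 counts) and at 2.52, 2.11, 1.64 and 2.11 CPM with siIGF2BP3 (39, 36, 20 and 29 counts). The highest siControl library lay just below the lowest siIGF2BP3 library. The log2 fold change was 0.94 (SE 0.27, adjusted p = 0.044, edgeR), and the call was lost in 6 of the 8 fits that left out 1 of these libraries (siControl replicates 1, 2 and 3, siIGF2BP3 replicates 1, 2 and 4), where the value was 0.83 to 0.94 and the adjusted p reached 0.17. The siControl mean of this line, 1.10 ± 0.297 CPM (SD, n = 4), was itself the lowest among the DMSO and siControl groups, and siIGF2BP3 (2.10 ± 0.359 CPM) stood close to sgIGF2BP2 siControl (1.88 ± 0.717 CPM) and sgAAVS1 DMSO (1.84 ± 0.409 CPM). With DMSO and Dox the sgIGF2BP3 cells held 1.59 ± 0.473 and 1.36 ± 0.355 CPM, a log2 fold change of −0.21 (SE 0.27, 95% interval −0.74 to 0.33) that was not called (adjusted p = 0.76, edgeR).

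In order of their means, the groups with the most SOX9 were sgIGF2BP2 Dox (2.11 CPM), siIGF2BP3 (2.10), sgIGF2BP2 siControl (1.88), sgAAVS1 DMSO (1.84), sgIGF2BP3 DMSO (1.59), sgIGF2BP2 DMSO (1.49), sgIGF2BP3 Dox (1.36) and sgIGF2BP3 siControl (1.10). The lowest were sgAAVS1 Dox (0.644) and siIGF2BP2 (0.525). Neighbouring groups in this order overlapped in their libraries at every step except that from sgIGF2BP3 siControl (lowest library 0.880 CPM) to sgAAVS1 Dox (highest library 0.810 CPM).

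**Figure D3:**
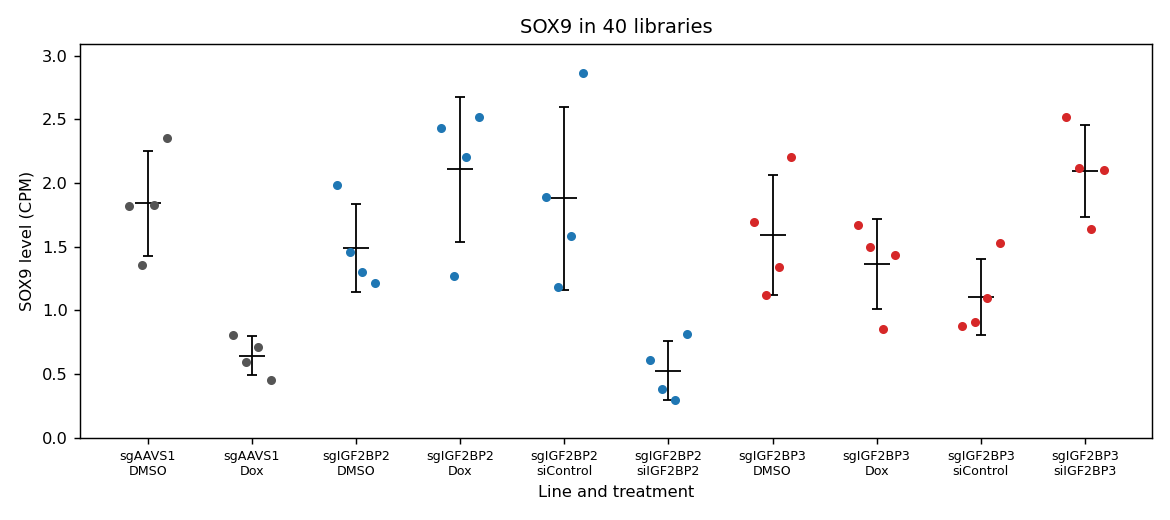
SOX9 level in CPM (linear axis from 0) in each of 40 libraries by line and treatment; points are libraries, horizontal ticks are group means and bars are ± SD (n = 4). All 8 libraries of sgAAVS1 Dox and siIGF2BP2 lie between 0.297 and 0.811 CPM, below the lowest of the other 32, at 0.852 CPM.

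The effects on SOX9 were then set against each other, each difference with its own test. The Dox effect in sgIGF2BP2 cells exceeded that in sgAAVS1 cells by 1.99 on the log2 scale (SE 0.40, adjusted p = 0.00058, edgeR), and that in sgIGF2BP3 cells exceeded it by 1.30 (SE 0.43, adjusted p = 0.045). Both differences subtract the same sgAAVS1 libraries, in which SOX9 fell with Dox, and SOX9 was not called within either of the other lines. SOX9 was the 1 of 9 genes called in each, beside 6.97% and 7.78% of all tested genes. The second of these calls was lost without any 1 of 11 libraries (sgAAVS1 DMSO 1, 3 and 4, sgAAVS1 Dox 2, 3 and 4, sgIGF2BP3 DMSO 2 and 3, sgIGF2BP3 Dox 1, 2 and 4), where the value stayed at 1.14 or above and the adjusted p reached 0.099. The siIGF2BP3 effect exceeded the siIGF2BP2 effect by 2.72 (SE 0.42, adjusted p = 7.9e-07, edgeR), the highest difference of all tested genes, in a comparison that called 2 of the 9 genes and 18.7% of all. The Dox effects in sgIGF2BP3 and sgIGF2BP2 cells differed by −0.69 (SE 0.37, 95% interval −1.42 to 0.03), which was not called. None of the 9 genes was called there by edgeR (2.91% of all; 1 of the 9 at an unadjusted p under 0.05), and none of 6 by DESeq2, which gave no adjusted p for SOX9, AXIN2 and LGR4.

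SOX9, AXIN2 and RNF43 lie on the long arm of chromosome 17 beyond SPOP, a stretch whose genes were lower with Dox in sgAAVS1 cells. SPOP itself, a substrate adaptor of the CUL3 ubiquitin ligase, fell from 36.7 to 11.4 CPM (log2 fold change −1.68). Of the 250 tested genes from there to the end of the arm, 130 were called lower and 1 higher, with a median log2 fold change of −0.173. SOX9, at −1.51, was the lowest of the 250, and the next was RNF157 at −0.53. The 5 tested genes on each side of SOX9, from SLC16A6 to CDC42EP4, ranged from −0.302 to 0.493 with a median of −0.0565, and 2 of these 10 were called lower. The other Dox comparisons had medians of 0.0171 (sgIGF2BP2) and 0.0119 (sgIGF2BP3) over the stretch.

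With siIGF2BP2, where SOX9 also fell, the 250 genes had a median of 0.0332, with 46 called lower and 61 higher, and none of the 10 neighbours of SOX9 was called (−0.275 to 0.195). SOX9 was again the lowest of the 250, ahead of GPRC5C at −0.968. With siIGF2BP3 SOX9 was the highest of the 250, whose median was 0.000275.

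AXIN2 (ENSG00000168646, GRCh38 17:65528563-65561647, minus strand) was called in none of the 16 comparisons. It stood at 1.44, 1.15, 1.68 and 1.53 CPM with DMSO in sgAAVS1 cells and at 1.75, 1.79, 1.25 and 1.29 CPM with Dox, and these groups overlap. The log2 fold change was 0.08 (95% interval −0.43 to 0.58, adjusted p = 0.87, edgeR), while its 10 nearest tested neighbours, DDX5 to PITPNC1, had a median of −0.123 with 3 called lower. The interval spans the median of the arm. Its group means over the study ran from 1.13 ± 0.283 CPM (sgIGF2BP2 siControl) to 1.60 ± 0.414 CPM (sgIGF2BP3 DMSO). Its exons share 1316 of 5226 bases on the same strand with AC004805.1, which had no count in any library.

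RNF43 (ENSG00000108375, GRCh38 17:58352500-58417595, minus strand) had 8 counts in all and none in 34 libraries. The 6 libraries with a count were sgIGF2BP2 Dox replicates 1 to 3 (2, 1 and 1 counts), sgIGF2BP3 DMSO replicate 2 (2 counts), sgIGF2BP3 Dox replicate 4 (1 count) and sgIGF2BP3 siControl replicate 1 (1 count). A count of 0 allows up to 3 counts, or 0.12 to 0.30 CPM depending on the library. Of its 7505 exon bases, 4326 are shared on the same strand with the annotated gene AC004687.2 (0 to 4 counts) and 143 with SUPT4H1 (2 to 22 counts), so reads from RNF43 may have been dropped or assigned elsewhere in counting, and its level is uncertain. All 10 of its tested neighbours, CUEDC1 to PRR11, were below 0 with Dox in sgAAVS1 cells (median −0.188, 6 called lower).

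LEF1 (ENSG00000138795, GRCh38 4:108047545-108168956, minus strand), a TCF/LEF factor that is itself a Wnt target in many cells, was the only other gene of the 9 called with siIGF2BP2 or siIGF2BP3. It stood at 37.4, 38.5, 40.9 and 36.2 CPM with siControl in sgIGF2BP2 cells and at 31.6, 33.6, 29.2 and 31.4 CPM with siIGF2BP2. The groups did not overlap, and the log2 fold change was −0.28 (SE 0.06, adjusted p = 6e-05, edgeR), a 1.22-fold lower level. With siIGF2BP3 it was 0.03 (SE 0.06), and the effects of the siRNA pools differed by 0.31 (SE 0.08, adjusted p = 0.0038, edgeR). LEF1 with Dox in sgIGF2BP2 cells was at 37.3 ± 2.04 CPM against 40.4 ± 2.01 CPM with DMSO, a log2 fold change of −0.13 that was not called (adjusted p = 0.11, edgeR), but was called at −0.16 (adjusted p = 0.049) without Dox replicate 1.

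TCF7 and TCF7L2, the other tested TCF/LEF factors, were called in none of the comparisons. TCF7 (ENSG00000081059, GRCh38 5:134114711-134151865, plus strand) had group means from 43.0 ± 0.815 CPM (siIGF2BP2) to 47.6 ± 3.13 CPM (sgAAVS1 DMSO), and shares 210 exon bases with SKP1 on the opposite strand. TCF7L2 (ENSG00000148737, GRCh38 10:112950250-113167678, plus strand) ranged from 23.9 ± 1.81 CPM (sgIGF2BP2 siControl) to 27.1 CPM (sgAAVS1 DMSO). Its log2 fold change with siIGF2BP2 was 0.17 (SE 0.08, adjusted p = 0.062, edgeR), and passed the threshold without siControl replicate 2 or siIGF2BP2 replicate 3, with adjusted p of 0.033 and 0.046. The 95% intervals of TCF7 in the 5 treatment comparisons lay between −0.18 and 0.16.

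SOX4 (ENSG00000124766, GRCh38 6:21592768-21598619, plus strand), like SOX9 a SOX family factor, was called in none of the comparisons. With siIGF2BP2, where SOX9 fell, SOX4 stood at 31.9 ± 1.81 CPM against 29.3 ± 2.26 CPM with siControl (log2 fold change 0.13, adjusted p = 0.10, edgeR). With siIGF2BP3 it stood at 31.5 ± 1.44 CPM against 27.9 ± 1.53 CPM (0.18, adjusted p = 0.15). With siControl against DMSO in sgIGF2BP3 cells its log2 fold change was −0.17 (adjusted p = 0.057, edgeR), which was called in 4 of 15 alternative fits: with an offset for GC content and length, with only the groups compared, and without DMSO replicate 3 or siControl replicate 4 (adjusted p down to 0.016). Its highest group mean was 35.0 ± 1.53 CPM, with Dox in sgIGF2BP3 cells.

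Of the genes that act at the membrane, LGR4 and ZNRF3 were not called with any Dox or targeting siRNA. LGR4 (ENSG00000205213, GRCh38 11:27365961-27472775, minus strand) stood at 6.48, 6.36, 7.11 and 5.65 CPM with siControl in sgIGF2BP2 cells and at 5.37, 5.01, 3.64 and 6.30 CPM with siIGF2BP2. The groups overlap through siIGF2BP2 replicate 4 (6.30 CPM), and the log2 fold change of −0.33 (SE 0.14) was not called (adjusted p = 0.054, edgeR). Without that library it was −0.47 and was called (adjusted p = 0.013, edgeR), as it was at −0.38 (0.037) without siControl replicate 4. ZNRF3 (ENSG00000183579, GRCh38 22:28883592-29057487, plus strand) lay between 14.8 and 21.4 CPM in all 40 libraries, with group means from 16.5 to 18.4 CPM. NKD1 (ENSG00000140807, GRCh38 16:50548330-50649249, plus strand), the Dishevelled-binding inhibitor, lay between 15.8 and 24.8 CPM, with log2 fold changes of −0.07 to 0.11 over the 5 treatment comparisons.

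The non-targeting siRNA was set against DMSO within each line, since these groups differ by transfection and by solvent. This contrast called 1 of the 9 genes in sgIGF2BP2 cells (18.4% of all tested genes) and 2 in sgIGF2BP3 cells (19.4% of all). In sgIGF2BP2 cells LGR4 rose from 5.55, 4.89, 5.18 and 3.94 CPM with DMSO to the siControl levels given above, without overlap (log2 fold change 0.39, SE 0.13, adjusted p = 0.034, edgeR). That call was lost under DESeq2 (adjusted p = 0.055) and without any 1 of DMSO replicates 2 and 4 and siControl replicates 1, 2 and 3, where the value was 0.30 to 0.39 and the adjusted p reached 0.15. In sgIGF2BP3 cells LEF1 fell from 43.4, 42.1, 40.4 and 42.1 CPM to 34.7, 35.5, 36.6 and 38.1 CPM (−0.21, SE 0.06, adjusted p = 0.0042, edgeR). NKD1 rose from 19.5, 18.1, 18.1 and 19.5 CPM to 22.1, 22.8, 24.5 and 22.2 CPM (0.28, SE 0.08, adjusted p = 0.0064). Neither pair of groups overlaps. SOX9 was called in neither line, at 0.35 (SE 0.25) and −0.52 (SE 0.29). The difference between these effects, a comparison added after the data were seen, called none of the 9 by edgeR or DESeq2 (0.00875% of all; 3 of the 9 at an unadjusted p under 0.05), and was −0.87 for SOX9 (SE 0.38, adjusted p = 0.93).

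No difference between the lines themselves was called for these genes. In each of the 3 comparisons between lines with DMSO, and in the comparison of the sgIGF2BP3 and sgIGF2BP2 lines with siControl, 0.0175% of all tested genes and none of the 9 were called by edgeR. DESeq2 called none either, but for sgIGF2BP3 against sgAAVS1 cells it gave an adjusted p for TCF7 and LEF1 alone. At an unadjusted p under 0.05 there were 1, 2, 1 and 1 of the 9. The lowest adjusted p of the 9 genes in these comparisons was 0.38, for LGR4 in sgIGF2BP3 against sgAAVS1 cells (5.14 and 4.07 CPM). SOX9 with siControl was 0.75 lower on the log2 scale in sgIGF2BP3 than in sgIGF2BP2 cells (SE 0.28, 95% interval of the change −1.29 to −0.21, adjusted p = 0.83, edgeR).

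The 137 other genes of the pathway and of the SOX family were read from 7 lists by role, and 77 of them were tested. Dox in sgAAVS1 cells called 8 higher and 8 lower (20.8% of the 77; 8 to 15 called without 1 library, and at most 10 without DMSO replicate 1, 2 or 3 or Dox replicate 1 or 2), Dox in sgIGF2BP2 cells 7 higher and 2 lower (11.7%), and Dox in sgIGF2BP3 cells 1 higher and none lower (1.3%). siIGF2BP2 called 8 higher and 12 lower (26.0%), and siIGF2BP3 called 1 higher and none lower (1.3%). Over all tested genes the shares called were 15.9%, 20.4%, 2.64%, 36.8% and 2.34% in the same order. The medians of the 77 genes were 0.0234, 0.0321, 0.0153, −0.0058 and 0.000666 in that order.

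Ligands were scarce. Of 25 genes for ligands, R-spondins and secretion, 5 were tested, namely WNT2B, WNT10A, WNT11, PORCN and WLS, and the ligands among them averaged 1.96 to 3.56 CPM. WLS, the carrier that brings Wnt proteins to the surface, was called higher with Dox in sgAAVS1 cells and with siIGF2BP2. Of 18 receptor genes 12 were tested, and FZD7 rose with Dox in sgAAVS1 cells, from 9.02 to 11.5 CPM (log2 fold change 0.36, adjusted p = 0.015, edgeR), and in sgIGF2BP2 cells (0.31, adjusted p = 0.039). The first of these calls was lost without DMSO replicate 2 or Dox replicate 1, and the second in 7 of 15 alternative fits, among them those without DMSO replicate 2, 3 or 4 or Dox replicate 3 or 4 (adjusted p up to 0.20). FZD5 and FZD8 were called lower with siIGF2BP2.

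All 22 genes of the cytoplasmic relay and destruction complex were tested, and 2 were called higher and 4 lower with siIGF2BP2 (36.8% of all tested genes), and 3 higher and 2 lower with Dox in sgAAVS1 cells (15.9% of all). The second set includes CSNK1G1, a casein kinase (0.20, adjusted p = 0.0498, edgeR), a call that was lost in 11 of 15 alternative fits, among them those without DMSO replicate 1, 2, 3 or 4 or Dox replicate 1, 2 or 4, with an adjusted p up to 0.24. Of 15 tested nuclear effectors, Dox called PYGO2 and CTBP1 lower in sgAAVS1 cells (15.9% of all) and CTBP2 lower in sgIGF2BP2 cells (20.4% of all). PYGO2, which binds the β-catenin partner BCL9, changed by −0.19 (adjusted p = 0.012, edgeR), and CTBP2, a co-repressor, by −0.14 (adjusted p = 0.011, edgeR). Each call was lost without 1 library, sgAAVS1 Dox replicate 1 for PYGO2 (adjusted p = 0.075) and sgIGF2BP2 Dox replicate 2 for CTBP2 (0.12), and that of CTBP2 also with only the groups compared (0.055). With siIGF2BP2, 3 of the 15 were called higher and none lower (36.8% of all), namely TLE2, TLE5 and CTNNBIP1. TLE5, a short Groucho family protein, rose from 374 to 457 CPM (0.29, adjusted p = 3.67e-10, edgeR). CTNNBIP1, an inhibitor that binds β-catenin, rose from 12.5 to 14.9 CPM (0.25, adjusted p = 0.021, edgeR). The CTNNBIP1 call was lost without siControl replicate 1 or 2 or siIGF2BP2 replicate 1 (adjusted p up to 0.18), and with the offset for GC content and length (0.057).

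Only 5 of 19 secreted or membrane inhibitors were tested. DACT3, which binds Dishevelled, rose with Dox in sgAAVS1 cells (4.81 to 6.72 CPM, 0.48, adjusted p = 0.0072, edgeR) and in sgIGF2BP2 cells (4.37 to 7.12 CPM, 0.68, adjusted p = 6.78e-05). KREMEN2, a receptor for Dickkopf inhibitors, rose with Dox in sgIGF2BP2 and sgIGF2BP3 cells and with siIGF2BP2, by 0.25, 0.24 and 0.23. It was also called higher with siControl against DMSO in sgIGF2BP3 cells. The siIGF2BP2 call was lost with an offset for GC content and length (0.13, adjusted p = 0.056), and the sgIGF2BP3 call was lost in 7 of 15 alternative fits, among them those without DMSO replicate 1, 3 or 4 or Dox replicate 1, 2 or 4 (adjusted p up to 0.27). NKD2, the paralog of NKD1, fell with siIGF2BP2 from 9.23 to 6.61 CPM (−0.48, adjusted p = 0.00061, edgeR), where NKD1 stood at 20.8 and 20.9 CPM. DKK1, SFRP1 and WIF1 did not pass the filter on low counts.

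Of 14 tested genes reported as Wnt targets, siIGF2BP2 called 4 lower and none higher, beside 36.8% of all tested genes: MYC, CCND1, CD44 and JUN. CCND1, cyclin D1, fell from 240 to 137 CPM (−0.80, adjusted p = 1.95e-31, edgeR), and CD44, an adhesion receptor, from 149 to 132 CPM (−0.17, adjusted p = 0.00016). Both were called the other way with Dox in sgIGF2BP2 cells, where CCND1 was higher by 0.14 and CD44 by 0.28. FOSL1, an AP-1 subunit, was lower there by −0.13. In sgAAVS1 cells Dox called 2 of the 14 higher and 3 lower, namely MYC, CD44, BMP4, JUN and FOSL1 (15.9% of all). Between the Dox effects in sgIGF2BP2 and sgAAVS1 cells, MYC alone of the 14 was called different (6.97% of all). EPHB2, a receptor tyrosine kinase, was the only listed gene called with siIGF2BP3 (28.0 to 33.8 CPM, 0.27, adjusted p = 0.0066, edgeR), a call that was lost without sgIGF2BP3 siControl replicate 4 (adjusted p = 0.10). In the SOX family, 4 of 15 further genes were tested, and siIGF2BP2 called SOX8 and SOX13, 1 in each direction (36.8% of all). SOX8 was called higher in the difference of the siRNA effects, siIGF2BP3 minus siIGF2BP2 (18.7% of all). SOX12 was lower with Dox in sgAAVS1 cells (−0.13, adjusted p = 0.045, edgeR). That call was lost in 6 of 15 alternative fits, among them those without DMSO replicate 1 or 3 or Dox replicate 1 or 2 (adjusted p up to 0.16). With siControl against DMSO, SOX12 was called higher in sgIGF2BP2 and in sgIGF2BP3 cells (18.4% and 19.4% of all).

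MYC, the transcription factor long known as a β-catenin target in colorectal cancer cells, had the pattern most like that of SOX9 among all tested genes. Pearson's r of log2 CPM over the 40 libraries was 0.882, followed by SMURF2, a ubiquitin ligase gene that also lies on distal 17q (0.822), and ADARB1, an RNA-editing enzyme (0.729). The 50th gene in that order had 0.615. MYC fell from 398, 386, 382 and 394 CPM to 311, 269, 289 and 307 CPM with Dox in sgAAVS1 cells (−0.41, SE 0.04, adjusted p = 1.7e-11, edgeR). With siIGF2BP2 it fell from 393, 369, 369 and 404 CPM to 282, 265, 261 and 277 CPM (−0.50, SE 0.04, adjusted p = 7.29e-16). These are the comparisons in which SOX9 fell, and in neither do the MYC groups overlap. They called 15.9% and 36.8% of all tested genes. MYC was singled out here by r over libraries that include these groups, so its fall in them is not separate evidence of likeness.

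With Dox in sgIGF2BP2 cells MYC rose by 0.19 (adjusted p = 0.00056, edgeR), where SOX9 was 0.49 higher and not called. With siIGF2BP3, where SOX9 was called higher, MYC was not called and stood at 375 CPM against 365 CPM with siControl (0.04, adjusted p = 0.74). Without sgAAVS1 Dox and siIGF2BP2, r over the other 32 libraries was 0.678. It was 0.633 over deviations from the group means and 0.946 over the 10 group means. The 40 libraries share these groups and their scaling, so the r values describe this set only.

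For the other genes the nearest patterns were weaker or belonged to other genes. LEF1 was most like ZFR (r = 0.802), CHORDC1 (0.798) and PRPF4 (0.796), with the 50th gene at 0.739. LGR4 was most like UHMK1 (0.788), XRN1 (0.776) and ARFGEF1 (0.769), and NKD1 was most like CDC42EP1 (0.702), TSC22D4 (0.696) and GRAMD1A (0.665). SOX4, AXIN2, TCF7L2, TCF7 and ZNRF3 had no gene above 0.598. Among the 9 genes themselves, r over the 36 pairs ran from −0.446 to 0.376, so no pair of them moved together closely over these libraries.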

How the data were processed

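Poly(A) RNA of 40 libraries was sequenced from directional libraries, per the labels' protocols. The authors deposited 1 table of unnormalized whole-number counts per gene. The submitters' processing notes name bcl2fastq 2.20.0.422, STAR 2.7.5c and hg38. The counting tool, its strand setting and the annotation are not given in the sources used here. Gene names, coordinates and exons come from GENCODE 29 (GRCh38), which holds 19847 of 19962 identifiers.

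Groups were taken from the labels. Genes were kept with filterByExpr by group (11428 genes, 99.976% of counts) and scaled by TMM (factors 0.978 to 1.03). The main test was edgeR 4.0.16 (R 4.3.3), quasi-likelihood, with 1 coefficient per group on all 40 libraries and Benjamini-Hochberg adjustment. The common coefficient of variation was 3.785%. There were 15 comparisons and 1 added later. Alternatives were RLE scaling, DESeq2 1.42.0, other filters, only the groups compared, a replicate block, a GC and length offset, and leaving out each library. The fits were tested on simulated data. Log2 CPM used a prior count of 2.

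The 10 genes and the lists were chosen with earlier results of these data known. The text gives values for the 10 genes, for the 3 genes most like each, and for list genes that, among called ones averaging log2 CPM 2 or more, were in the top 3 by change in either direction of a Dox or targeting siRNA comparison. Other genes are named as checks, neighbours or members of a small count. Same-numbered libraries did not deviate together (r from −0.0896 to 0.0393).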

Additional observations from a re-analysis of the deposited data

Results flagged for a closer look

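In groups of 4 libraries, a library was singled out when its gap to the nearest of the others, divided by the range of the group, was above 0.829, and chance flags about 1 in 20 groups. Of 94 sets of 1 gene in 1 group, 5 were singled out. AXIN2 stood at 2.36 CPM in sgIGF2BP2 Dox replicate 1 and at 1.27 to 1.30 CPM in the other libraries of that group. ZNRF3 stood at 18.9 CPM in sgIGF2BP3 Dox replicate 1 and at 15.9 to 16.2 CPM in the others. RNF43 had counts in a single library of 3 groups: 0.118 CPM in sgIGF2BP3 DMSO replicate 2, 0.0716 CPM in sgIGF2BP3 Dox replicate 4 and 0.0977 CPM in sgIGF2BP3 siControl replicate 1, which are 1 or 2 counts each. The other libraries of these groups had no count, which fixes the ratio at 1.0, so the chance rate above does not apply to them.

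Effects differed between lines or siRNA pools, by the test of the difference itself, in 4 cases. For SOX9 the Dox effect was 1.99 higher (log2) in sgIGF2BP2 and 1.30 higher in sgIGF2BP3 than in sgAAVS1 cells, and the siIGF2BP3 effect was 2.72 above the siIGF2BP2 effect. For LEF1 the siIGF2BP3 effect was 0.311 above the siIGF2BP2 effect.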

How the results depend on the processing

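Of 11 called results for the 10 genes, 8 kept direction and call in every alternative that gave an adjusted p, and none of the 11 changed sign. Of 133 results not called, 6 were called in some alternative and 38 changed sign in some alternative. Of 19 called results of the list genes with values, 9 kept their call in every alternative and none changed sign. Among the 11 results of the 10 genes, the calls that were lost are those of SOX9 with siIGF2BP3 (adjusted p 0.017 to 0.17), of SOX9 in the difference of Dox effects between sgIGF2BP3 and sgAAVS1 cells (0.023 to 0.099) and of LGR4 with siControl in sgIGF2BP2 cells (0.025 to 0.15).

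The number of the 9 genes called was 0 to 1 over the fits without 1 library for Dox in sgIGF2BP2 cells, siIGF2BP3, the sgIGF2BP3 minus sgAAVS1 difference, and siControl in sgIGF2BP2 cells. With the GC and length offset it was 1 for Dox in sgIGF2BP2 cells and 0 for the sgIGF2BP3 minus sgAAVS1 difference. With DESeq2 it was 0 for siControl in sgIGF2BP2 cells. DESeq2 gave no adjusted p for SOX9 with siIGF2BP3 (unadjusted p = 0.0025) or in the sgIGF2BP2 and sgIGF2BP3 differences from sgAAVS1 (1.08e-05 and 0.0053), so it has no count there. It gave no adjusted p for some of the 9 genes in other comparisons too.

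The number of list genes called was 8 to 15 without 1 library for Dox in sgAAVS1 cells, 0 to 1 for Dox in sgIGF2BP3 cells and 1 to 2 for siIGF2BP3. The GC and length offset gave 17 for Dox in sgIGF2BP2 cells and 2 for Dox in sgIGF2BP3 cells. For siIGF2BP3 the count was 2 with no filter, with DESeq2 and with the replicate block, and 3 with only the groups compared. The cause was not tested. The replicate block changed 1 call among the 10 genes, LGR4 with siIGF2BP2. With 4 to 40 counts of SOX9 a library, its standard errors were 0.25 to 0.43, and changes of up to 0.87 on the log2 scale were not called.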
